A study of Arabidopsis thaliana with 24 samples.

Results

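Transcript levels of 10 genes of tetrapyrrole, heme and siroheme metabolism were followed in roots of 7 day old Arabidopsis thaliana seedlings. The genes are HEMA1, HEMA2, GSA1, FC1, FC2, HO1, UPM1, GUN4, CRD1 and PORB, and each was found by its gene identifier. All 10 were among the 33602 genes of the deposited table, and 9 of them, all but GUN4, reached 1 RPKM (a read count scaled to gene length and library size) in at least 1 group, as did 19767 genes in all. The study placed 24 samples in 8 groups of 3. Wild type was grown for 7 days on medium with 0.1 mM FeEDTA, or for 4 days on it and then 3 days on medium that lacked FeEDTA and held 300 µM ferrozine, an iron chelator. The other 6 groups all had the iron-deficient treatment. One of them is the mutant of the transcription factor POPEYE (PYE), written PYE in the sample records and pye-1 in the series design. The other 5 are lines that carry GFP, with a localization given in the records as V-EN-C-EP for PPL, V-EN for SHR23, C-EN-V for PEP45, EP-C for WER13 and EP for WER65. Those codes are not spelled out in the records, which also do not say what drives the GFP fusion in each line, whether the lines carry pye-1, or whether the 3 samples of a group came from separate plants. Iron-deficient wild type had the same treatment as these 6 groups and is the reference for each.

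Plants build all of their tetrapyrroles in plastids from glutamate, by way of aminolevulinic acid (ALA). A common path leads from ALA to uroporphyrinogen III, where siroheme branches off, and on to protoporphyrin IX, into which ferrochelatase inserts iron to make heme and magnesium chelatase inserts magnesium on the way to chlorophyll. Siroheme is the cofactor of nitrite and sulfite reductase, and heme serves cytochromes, peroxidases, catalase and nitrate reductase, so a root uses the heme and siroheme branches although it makes little chlorophyll. PYE is a basic helix-loop-helix protein of the root response to iron deficiency, and proteins of that class bind E-box sequences.

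The 250 bases upstream of each gene start were read from the RefSeq assembly TAIR10.1 and searched on both strands for the E-box CANNTG, for its special case the G-box CACGTG, and for the evening element AAAATATCT, a motif of clock-regulated genes. A G-box was found upstream of 2 of the 10 genes, FC2 and CRD1, and in 6.49% of 27443 protein-coding promoters of the same length. An E-box, G-boxes included, was found for 5 of 10 genes (HEMA1, GSA1, FC2, CRD1 and PORB) against 55.3% of all promoters, and the evening element only for PORB, against 2.36%. A match is a description of the letters and not of binding. The sequences of 5 genes are shown 5′ to 3′ on the strand of the gene, ending at the base before the annotated start, without bases that lie in an exon of a neighbouring gene. Capitals mark E-boxes, G-boxes and the evening element where they lie whole in the printed bases. HEMA1 is shown because it had the clearest response, UPM1 because it starts the siroheme branch and had none of the motifs, FC2 and CRD1 because they carry the G-box, and PORB because it carries the evening element.
HEMA1 (chr1:21626403-21626652, minus strand, TAIR10.1): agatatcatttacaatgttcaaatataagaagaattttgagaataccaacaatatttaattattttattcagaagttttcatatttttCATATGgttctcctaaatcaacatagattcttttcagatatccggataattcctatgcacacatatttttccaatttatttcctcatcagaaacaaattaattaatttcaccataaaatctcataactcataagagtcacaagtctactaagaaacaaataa
UPM1 (chr5:16365650-16365899, plus strand, TAIR10.1): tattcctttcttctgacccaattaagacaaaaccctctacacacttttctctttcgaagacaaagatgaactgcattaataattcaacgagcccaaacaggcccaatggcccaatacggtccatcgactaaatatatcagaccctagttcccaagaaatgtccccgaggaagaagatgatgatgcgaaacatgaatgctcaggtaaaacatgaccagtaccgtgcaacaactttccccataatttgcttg
FC2 (chr2:12954149-12954173, minus strand, TAIR10.1): aactgtgtggaCACGTGtggttctc
CRD1 (chr3:21076316-21076504, plus strand, TAIR10.1): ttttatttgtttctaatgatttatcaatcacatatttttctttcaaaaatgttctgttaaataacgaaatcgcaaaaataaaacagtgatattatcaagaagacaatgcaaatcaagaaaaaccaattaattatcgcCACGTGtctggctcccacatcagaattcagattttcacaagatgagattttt
PORB (chr4:13725360-13725545, plus strand, TAIR10.1): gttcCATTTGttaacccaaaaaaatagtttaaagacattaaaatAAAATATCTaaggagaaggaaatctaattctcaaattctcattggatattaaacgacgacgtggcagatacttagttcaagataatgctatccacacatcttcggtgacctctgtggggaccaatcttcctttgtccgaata
The HEMA1 match, CATATG, lay at bases -162 to -157 from the start, the G-box of FC2 at -14 to -9 and that of CRD1 at -52 to -47. In PORB, CATTTG lay at -182 to -177 and the evening element at -142 to -134. Another E-box, CAACTG, lay at -26 to -21 in FC2 and at -191 to -186 in PORB. In both genes it is cut by the start of the printed sequence and not capitalized. For FC2 the window was short, because 225 of its 250 upstream bases lie in exons of OFP17 on the same strand.

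The RPKM values are a single mean for each group, so levels are given without a spread between replicates, and neighbours in an order of levels cannot be separated by it. Where a gene is said to have risen or fallen, it is listed in the authors' deposited table for that comparison, where all q-values are at most 0.05 and the means of each gene are apart by about 1.5-fold or more. The table headed PYE was taken, by its values, as that of PPL. It lists only 3 genes, 1 higher and 2 lower, so this match rests on 3 directions. Of the 14 comparisons made, 7 have such a table. All 7 use the same 3 libraries of iron-deficient wild type, which are the reference in the 6 comparisons of pye-1 and the lines. A fall in wild type under iron deficiency and a rise in pye-1 or a line are therefore not independent. Transcript of PYE itself stood at 11 RPKM in wild type with iron, 45.1 without, 20.6 in pye-1 and 25.3 to 45.8 in the 5 lines, so a transcript of the gene was present in pye-1. From the steps that single reads leave in low values, the libraries held 14834500 to 24011400 effective reads. The 6 root tissue markers, such as SCR, CASP1 and XCP2, were above 0 in every group, with a summed level of 113 to 509 RPKM. Of these 6, 4 fell in wild type under iron deficiency (EXPA7, COBL9, CASP1 and XCP2), where 11.7% of all genes at 1 RPKM or more fell. Against iron-deficient wild type, the root hair genes EXPA7 and COBL9 and the endodermis gene CASP1 fell in pye-1, SHR23, PEP45 and WER13, EXPA7 and CASP1 fell in WER65, WER rose in SHR23, and none was listed in PPL. Over all genes 10.2% fell in pye-1, 10.6% in SHR23, 9.64% in PEP45, 14.1% in WER13 and 11.5% in WER65. In SHR23 7.56% of all genes rose, and in PPL 0.0152% were listed. EXPA7 was at 68.6 RPKM in wild type with iron, 25.9 without, 2.88 in pye-1, 20.5 in PPL, 3.17 in SHR23, 3.93 in PEP45, 3.11 in WER13 and 14.1 in WER65. The part of these markers in the values of the 10 genes was not tested. The 18 green tissue transcripts encode Rubisco, its activase, and antenna and other photosystem proteins. They summed to 406 RPKM in wild type with iron, 411 without, 111 in pye-1, 143 in PPL, 53.2 in SHR23, 485 in PEP45, 28.4 in WER13 and 27.8 in WER65. In bulk tissue, here roots cut off with a razor, fewer cells of a type, whatever their source, and less RNA per cell cannot be told apart.

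**Figure D1:**
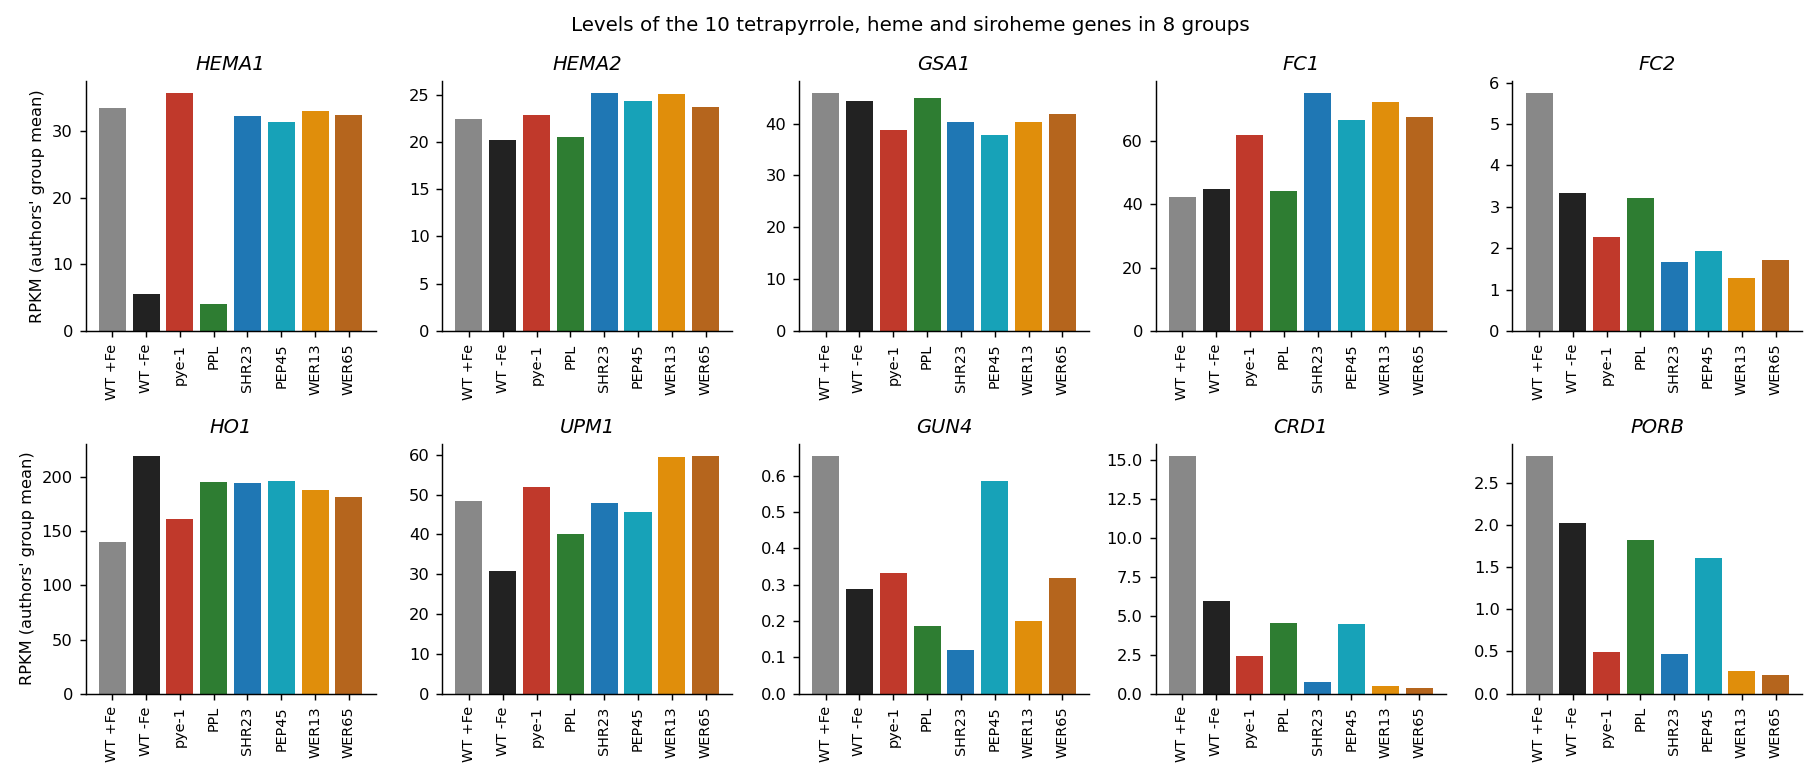
RPKM (linear axis from 0, the authors' mean of each group, no error available) of each of the 10 genes in the 8 groups. HEMA1 stands at 5.47 in iron-deficient wild type and 4.02 in PPL and between 31.3 and 35.7 in the other 6 groups, while CRD1 and PORB are lowest in WER13 and WER65.

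HEMA1 encodes glutamyl-tRNA reductase, the enzyme at the entry to the pathway whose activity limits ALA formation. Its gene lies on chromosome 1 (AT1G58290; TAIR10.1, chr1:21623700-21626402). The level was 33.5 RPKM in wild type with iron, 5.47 in wild type without iron, 35.7 in pye-1, 4.02 in PPL, 32.3 in SHR23, 31.3 in PEP45, 33 in WER13 and 32.4 in WER65. Iron-deficient wild type and PPL were thus low, and the other 6 groups, iron-sufficient wild type among them, lay in a narrow band. In the authors' deposited table HEMA1 fell 6.12-fold in wild type under iron deficiency (q = 8.77e-06). In pye-1 it rose 6.51-fold against iron-deficient wild type, with q = 1.4e-06 in the authors' deposited table. Each of 4 lines showed a rise of similar size in the authors' deposited table: 5.9-fold in SHR23 (q = 1.39e-07), 5.71-fold in PEP45 (q = 1.2e-07), 6.02-fold in WER13 (q = 1.57e-07) and 5.92-fold in WER65 (q = 1.24e-06). PPL was not listed, with a level 1.36-fold below that of wild type. Against pye-1, for which the authors' tables give no comparison with the lines, PPL was 8.86-fold lower and the other 4 lines were 1.08- to 1.14-fold lower. The ratio of highest to lowest group was 8.86 for HEMA1. Among genes at 1 RPKM or more in some group and above 0 in every group, 7.08% had a ratio as large.

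HEMA2, the second glutamyl-tRNA reductase gene (AT1G09940; chr1:3236908-3239554), known for steady expression that includes roots, was listed in none of the 7 tables. Its level was 22.4 RPKM in wild type with iron, 20.2 in wild type without iron, 22.9 in pye-1, 20.5 in PPL, 25.2 in SHR23, 24.3 in PEP45, 25.1 in WER13 and 23.7 in WER65. The ratio of highest to lowest was 1.25. RPKM is per length, so the levels of both genes can be added: HEMA1 made up 59.9% of their sum in wild type with iron, 21.4% in wild type without iron, 60.8% in pye-1, 16.4% in PPL and 56.1% to 57.8% in the other 4 lines. The sum was 25.6 RPKM in iron-deficient wild type and 24.5 in PPL, against 55.5 to 58.6 in the other 6 groups. HEMA2 was the more abundant of the pair only in iron-deficient wild type and PPL.

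GSA1 encodes glutamate semialdehyde aminotransferase, which makes ALA from the product of HEMA1 and HEMA2 (AT5G63570; chr5:25451800-25453845). It was at 45.9 RPKM in wild type with iron, 44.3 in wild type without iron, 38.8 in pye-1, 45 in PPL, 40.2 in SHR23, 37.8 in PEP45, 40.2 in WER13 and 41.9 in WER65. No table listed it. Its ratio of highest to lowest, 1.21, was reached by 89.5% of the genes at 1 RPKM or more that were above 0 in every group. Its paralog GSA2 fell from 13.5 to 7.03 RPKM in wild type under iron deficiency (q = 0.000522 in the authors' deposited table) and was at 5.03 to 7.93 RPKM in the 6 other iron-deficient groups without being listed. Of the other genes of ALA synthesis, the tRNA-charging enzyme GLURS and the regulators FLU and GBP were listed nowhere. HEMA3 stayed under 1 RPKM, with values from 0.0934 to 0.467.

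Heme is made by ferrochelatase, for which Arabidopsis has a pair of genes. FC1 is known as the form used outside photosynthetic tissue, and FC2 as the form that prevails in green tissue. FC1 (AT5G26030; chr5:9096451-9099185) was at 42.1 RPKM in wild type with iron, 44.7 in wild type without iron, 61.8 in pye-1, 44 in PPL, 75.1 in SHR23, 66.5 in PEP45, 72.3 in WER13 and 67.4 in WER65. Both wild-type groups and PPL were lowest, pye-1 was intermediate and the other 4 lines were highest. In the authors' deposited table FC1 rose 1.68-fold in SHR23 (q = 1.18e-05), 1.62-fold in WER13 (q = 3.64e-05) and 1.51-fold in WER65 (q = 0.000538). The 1.49-fold difference in PEP45 and the 1.38-fold difference in pye-1 were not listed. FC1 shares 34 bases with HDA2 on the opposite strand, at 15.1 to 21 RPKM.

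FC2 (AT2G30390; chr2:12950954-12954148) was at 5.75 RPKM in wild type with iron, 3.34 in wild type without iron, 2.27 in pye-1, 3.2 in PPL, 1.67 in SHR23, 1.94 in PEP45, 1.28 in WER13 and 1.71 in WER65. The order ran opposite to that of FC1, with the wild-type groups and PPL highest. In the authors' deposited table FC2 fell 1.72-fold in wild type under iron deficiency (q = 0.0086). Against iron-deficient wild type it fell 2.01-fold in SHR23 (q = 0.00183), 1.72-fold in PEP45 (q = 0.0105), 2.61-fold in WER13 (q = 0.00124) and 1.96-fold in WER65 (q = 0.00385) in the authors' deposited table. The 1.48-fold lower level in pye-1 was not listed. FC1 exceeded FC2 7.32-fold in wild type with iron, 13.4-fold in wild type without iron, 27.3-fold in pye-1, 13.7-fold in PPL, 45-fold in SHR23, 34.3-fold in PEP45, 56.5-fold in WER13 and 39.4-fold in WER65. Their sum, in which FC2 was always the small part, was 47.2 to 48 RPKM in both wild-type groups and PPL and 64.1 to 76.7 in the rest. Over the 8 group means the log2 levels of FC2 followed those of CHLM, a chlorophyll gene, with r = 0.99, and ran against those of FC1 with r = -0.93, a description of 8 points that share their libraries.

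**Figure D2:**
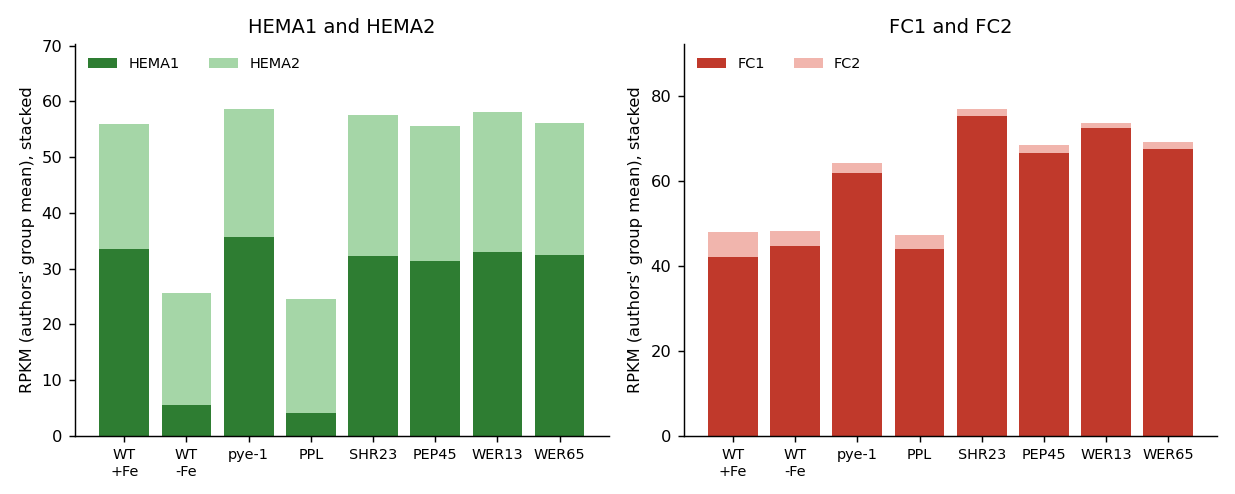
Stacked RPKM (linear axis from 0, the authors' group means, no error available) of HEMA1 and HEMA2 on the left and of FC1 and FC2 on the right in 8 groups. The HEMA sum is near 25 RPKM only in iron-deficient wild type and PPL, and the FC sum is lowest, 47.2 to 48 RPKM, in both wild-type groups and PPL.

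HO1, heme oxygenase, opens the heme ring and releases its iron on the way to the phytochrome chromophore (AT2G26670; chr2:11341548-11343693, RefSeq symbol TED4). It was the most abundant of the 10 genes in every group, at 140 RPKM in wild type with iron, 220 in wild type without iron, 161 in pye-1, 196 in PPL, 195 in SHR23, 197 in PEP45, 188 in WER13 and 182 in WER65. It rose 1.57-fold in wild type under iron deficiency (q = 0.00303 in the authors' deposited table). All 6 other iron-deficient groups lay between the wild-type values, and none was listed. HO2 (5.27 to 7.68 RPKM) and the bilin reductase gene HY2 (1.95 to 2.28 RPKM) were listed nowhere. HO4 was at 1.11 RPKM in iron-deficient wild type and at 0.0507 to 0.445 elsewhere, without a listing, and HO3 was at 0 to 0.133 RPKM.

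UPM1, uroporphyrinogen III methyltransferase, takes the common intermediate into the siroheme branch (AT5G40850; chr5:16365900-16369316). Its level was 48.5 RPKM in wild type with iron, 30.7 in wild type without iron, 52 in pye-1, 40.2 in PPL, 47.9 in SHR23, 45.6 in PEP45, 59.5 in WER13 and 59.8 in WER65. Iron-deficient wild type was lowest, PPL next, and WER13 and WER65 highest. In the authors' deposited table UPM1 fell 1.58-fold in wild type under iron deficiency (q = 0.00811). Against iron-deficient wild type it rose, in the authors' deposited table, by 1.69-fold in pye-1 (q = 0.000198), 1.56-fold in SHR23 (q = 0.000121), 1.93-fold in WER13 (q = 5.76e-05) and 1.94-fold in WER65 (q = 0.000189). The levels in PEP45, 1.48-fold higher, and in PPL, 1.31-fold higher, were not listed. The next enzyme of the branch for which a gene was followed, the sirohydrochlorin ferrochelatase SIRB, which inserts the iron, was at 14.1 to 21 RPKM and was listed nowhere.

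The enzymes that use siroheme had the direction of HEMA1 and UPM1 in wild type and in pye-1. NIR1, nitrite reductase, was at 91 RPKM in wild type with iron, 33.2 in wild type without iron, 131 in pye-1, 45.7 in PPL, 76.9 in SHR23, 101 in PEP45, 132 in WER13 and 135 in WER65. SIR, sulfite reductase, was at 89, 36.8, 148, 40.4, 148, 136, 132 and 132 RPKM in the same order of groups. Both fell in wild type under iron deficiency, NIR1 2.74-fold (q = 1.22e-05) and SIR 2.42-fold (q = 2e-05) in the authors' deposited table. Both rose in pye-1, NIR1 3.95-fold (q = 2.02e-06) and SIR 4.01-fold (q = 1.11e-06) in the authors' deposited table, and they rose in 4 of 5 lines, PPL being the exception. The rise in those 4 lines was 2.31- to 4.07-fold for NIR1 and 3.58- to 4.03-fold for SIR. The ratio of SIR to UPM1 was 1.84 in wild type with iron, 1.2 without, 1 in PPL and 2.21 to 3.1 in the other 5 groups. Over the 8 group means HEMA1 had r = 0.95 with SIR, 0.9 with NIR1 and 0.8 with UPM1 on the log2 scale, again a description of 8 points.

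Heme proteins of nitrogen metabolism differed from these in wild type. The nitrate reductase genes NIA1 and NIA2 and the hemoglobin gene AHB1 rose under iron deficiency, AHB1 from 3.96 to 215 RPKM (q = 5.98e-06 in the authors' deposited table) and NIA1 from 2.9 to 18.2 RPKM (q = 0.000279 in the authors' deposited table). NIA2 rose from 27.1 to 43.3 RPKM (q = 0.0081 in the authors' deposited table). All of NIA1, NIA2 and AHB1 rose further in pye-1, to 68.5, 92.2 and 594 RPKM, and in SHR23, PEP45, WER13 and WER65. PPL, at 24.8, 55.2 and 299 RPKM, was not listed for any of them. NIR1, SIR, NIA1, NIA2 and AHB1 were thus listed, each of them, in 6 of the 7 comparisons, in which 18.1% to 23.1% of all genes were listed.

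**Figure D3:**
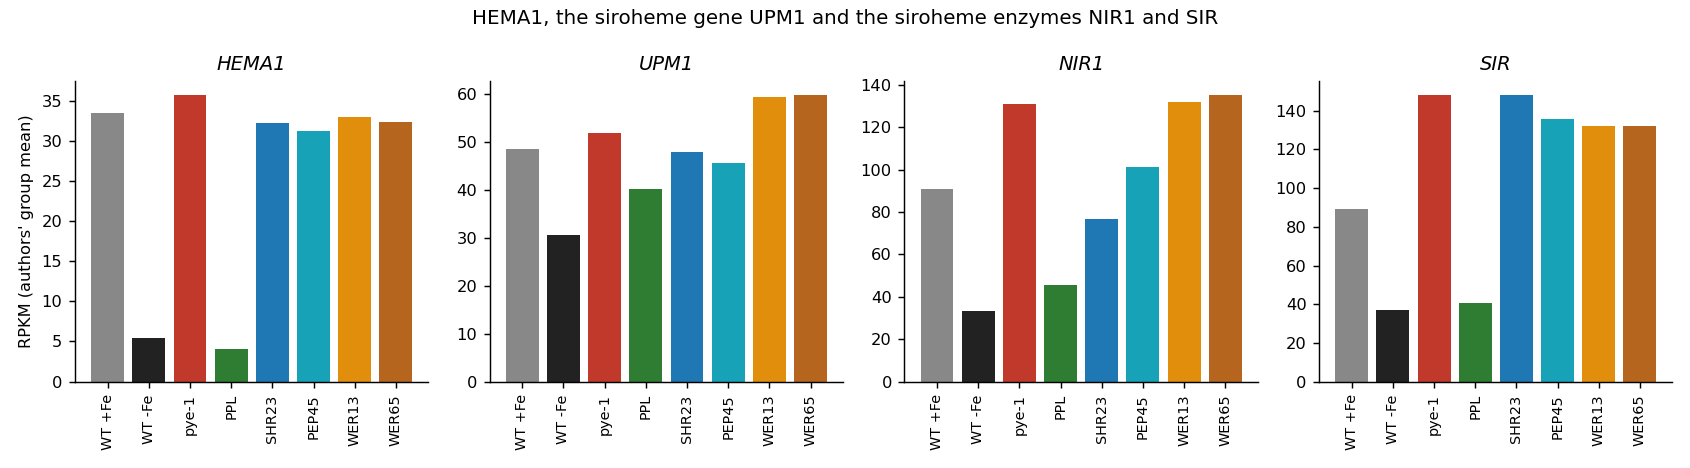
RPKM (linear axes from 0, the authors' group means, no error available) of HEMA1, UPM1, NIR1 and SIR in 8 groups. Iron-deficient wild type and PPL are the lowest 2 groups for each of the 4 genes, at 5.47 and 4.02 RPKM for HEMA1 and 36.8 and 40.4 for SIR.

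On the chlorophyll branch, GUN4 activates magnesium chelatase, CRD1 is the iron-containing subunit of the cyclase that forms the fifth ring, and PORB is a light-dependent protochlorophyllide reductase. GUN4 (AT3G59400; chr3:21948501-21949796) was near the limit of detection, at 0.655 RPKM in wild type with iron, 0.288 in wild type without iron, 0.333 in pye-1, 0.187 in PPL, 0.119 in SHR23, 0.586 in PEP45, 0.2 in WER13 and 0.317 in WER65. Those levels correspond to about 8 to 44 reads over the 3 libraries of a group, and no table listed the gene. It overlaps GCN2 on the opposite strand over 946 bases, and GCN2 was at 6.72 to 10.1 RPKM. The strand setting of the counting is not given in the sources used here, so it is not known to which gene reads over the shared bases were given. The level of GUN4 was far below that of GCN2 in every group.

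CRD1 (AT3G56940; chr3:21076505-21078443) had the widest range of the 10 genes. It was at 15.3 RPKM in wild type with iron, 5.97 in wild type without iron, 2.39 in pye-1, 4.55 in PPL, 0.725 in SHR23, 4.48 in PEP45, 0.498 in WER13 and 0.378 in WER65. The ratio of highest to lowest was 40.4, and 2.06% of the genes at 1 RPKM or more that were above 0 in every group had one as large. Genes at 0 in some group have no such ratio and were left out of this share. In the authors' deposited table CRD1 fell 8.23-fold in SHR23 (q = 0.0115), 12-fold in WER13 (q = 0.00544) and 15.8-fold in WER65 (q = 0.002) against iron-deficient wild type. The 2.56-fold lower level in wild type without iron and the 2.5-fold lower level in pye-1 were not listed. In WER65 the level rests on about 27 reads over 3 libraries, and in wild type with iron on about 1059. CRD1 shares 147 bases with SIP2;1 on the opposite strand, which was at 39.6 to 59.4 RPKM.

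PORB (AT4G27440; chr4:13725546-13727440) was at 2.82 RPKM in wild type with iron, 2.02 in wild type without iron, 0.491 in pye-1, 1.82 in PPL, 0.474 in SHR23, 1.61 in PEP45, 0.267 in WER13 and 0.224 in WER65. In the authors' deposited table it fell 4.25-fold in SHR23 (q = 0.0257), 7.55-fold in WER13 (q = 0.0118) and 9.01-fold in WER65 (q = 0.00715). The 4.11-fold lower level in pye-1 was not listed. PORB and CRD1 fell in the same 3 lines, and PPL and PEP45 had the levels nearest to those of iron-deficient wild type. About 18 to 215 reads over 3 libraries stood behind the values of PORB, whose gene shares 71 bases with AT4G27450 on the opposite strand, at 67.6 RPKM in wild type with iron and 304 to 739 in the other groups.

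The levels of both genes broadly moved with the green tissue transcripts, whose part in these results was not tested. PPL departed from this: its green tissue sum was 143 RPKM, near the 111 of pye-1 and below the 411 of iron-deficient wild type. PORB in PPL was at 1.82 RPKM, against 0.491 in pye-1 and 2.02 in iron-deficient wild type. CRD1 in PPL was at 4.55 RPKM, against 2.39 in pye-1 and 5.97 in iron-deficient wild type. Over the 8 group means the log2 level of CRD1 had r = 0.92, and that of PORB r = 0.91, with the log2 sum of the 18 green tissue transcripts, and the other 8 genes ranged from 0.72 for FC2 and 0.66 for GUN4 to -0.66 for FC1 and -0.7 for UPM1, with -0.33 for HEMA1. None of the 18 was listed in wild type under iron deficiency, in pye-1, in PPL or in PEP45, while 2 of 18 fell in SHR23, 5 in WER13 and 9 in WER65. Over all genes 10.6%, 14.1% and 11.5% fell in these 3 lines, so the count in SHR23 is near that share. In the other comparisons 22% of all genes were listed in wild type, 19.1% in pye-1, 18.1% in PEP45 and 0.0152% in PPL. By value, all 18 were lower than in iron-deficient wild type in pye-1, PPL, SHR23, WER13 and WER65, and 3 of the 18 were at 0 in WER65. In wild type without iron, where CRD1 was 2.56-fold lower, 9 of the 18 were higher by value and 9 lower. Among the higher ones, LHCB1.1 was at 1.94 RPKM with iron and 26.2 without, and among the lower ones LHCA4 was at 82.8 and 39.7 RPKM and RCA at 29.2 and 14.6 RPKM, none of them listed.

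**Figure D4:**
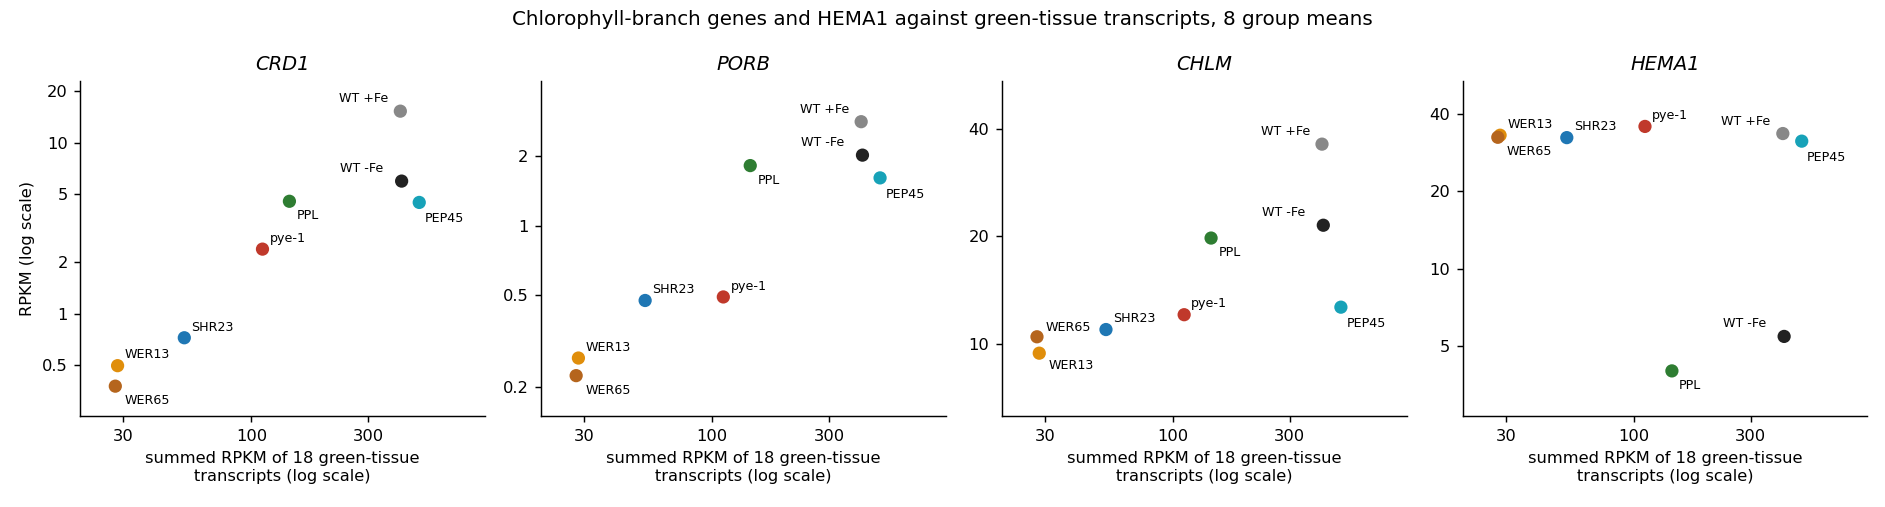
RPKM of CRD1, PORB, CHLM and HEMA1 against the summed RPKM of 18 green tissue transcripts, both on log axes, with 1 point per group (the authors' means, no error available). CRD1 and PORB are lowest in WER13 and WER65, where the sum is 28.4 and 27.8 RPKM, while HEMA1 is high there and low in iron-deficient wild type and PPL.

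Among the other 31 genes of the pathway, 28 reached 1 RPKM. In wild type under iron deficiency 10 of the 28 fell and none rose, where 11.7% of all genes fell and 10.3% rose, with a median log2 difference of -0.45 against -0.01 over all genes at 1 RPKM or more. Of these 10, 7 belong to the chlorophyll branch, where 10 of 11 genes were measured at 1 RPKM or more. CHLH, a subunit of magnesium chelatase, fell from 6.47 to 1.21 RPKM (q = 0.0249), and the subunits CHLI1 and CHLD fell from 14.3 to 5.93 (q = 0.00987) and from 27.6 to 14.4 RPKM (q = 0.000646), in the authors' deposited table. YCF54, which works with the cyclase, fell from 19.4 to 7.42 RPKM (q = 0.000876), and CHLG, chlorophyll synthase, from 11.7 to 4.64 RPKM (q = 0.000495), in the authors' deposited table. CHLM, the methyltransferase before the cyclase, fell from 36.2 to 21.5 RPKM (q = 0.00994), and CAO, which makes chlorophyll b, from 3.73 to 2.07 RPKM (q = 0.0124), in the authors' deposited table. Of the 10 common steps between ALA and protoporphyrin IX, 2 fell: HEMC from 32.5 to 20.7 RPKM (q = 0.0043 in the authors' deposited table) and HEMB2 from 1.25 to 0.314 RPKM (q = 0.0235 in the authors' deposited table). The other 8 common steps, such as HEMB1 (37.5 and 31.8 RPKM) and HEMG2 (17.7 and 17.4 RPKM), were not listed.

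Against iron-deficient wild type, 4 of the 28 fell in pye-1 and none rose, 4 fell in SHR23, 3 fell in WER13, 5 fell in WER65, and in PEP45 2 rose and 1 fell. In PPL none of the 28 was listed, where 0.0152% of all genes were. Over all genes, 10.2% fell in pye-1, 10.6% in SHR23, 14.1% in WER13 and 11.5% in WER65, and in PEP45 8.43% rose and 9.64% fell. The counts of the 28 are near those shares and are no result about the set. CHLM fell in pye-1 and in each of those 4 lines, to 12.1, 11, 12.7, 9.45 and 10.5 RPKM in pye-1, SHR23, PEP45, WER13 and WER65, with q between 6.95e-05 in WER13 and 0.00235 in pye-1 in the authors' deposited table. YCF54 fell in pye-1, SHR23, WER13 and WER65, to between 2.76 and 4.63 RPKM. CHLI2 and PORC fell in pye-1, SHR23 and WER65, and CHLD in WER13 and WER65. The rises in PEP45 were those of DVR, which reduces a vinyl group of the chlorophyll precursor, from 0.741 to 1.7 RPKM (q = 0.00828 in the authors' deposited table) and of CHLG from 4.64 to 7.24 RPKM (q = 0.01 in the authors' deposited table). CHLH was at 2.51 RPKM in pye-1, 0.398 in PPL and 1.34 to 2.46 in the other 4 lines, none of them listed.

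Taking the 10 genes by comparison, 4 of the 9 at 1 RPKM or more were listed in wild type under iron deficiency, HO1 higher and HEMA1, FC2 and UPM1 lower, where 22% of all 19767 genes were listed, 10.3% higher and 11.7% lower. In pye-1, 2 of 9 were listed, HEMA1 and UPM1, both higher, where 19.1% of all genes were listed, 8.89% higher and 10.2% lower. In SHR23, 6 of 9 were listed, HEMA1, FC1 and UPM1 higher and FC2, CRD1 and PORB lower, against 18.1% of all genes, 7.56% higher and 10.6% lower. The same 6 genes were listed in the same directions in WER13, against 23.1% of all genes, 8.99% higher and 14.1% lower, and in WER65, against 19.3%, 7.87% higher and 11.5% lower. In PEP45, 2 of 9 were listed, HEMA1 higher and FC2 lower, against 18.1% of all genes, 8.43% higher and 9.64% lower. In PPL none was listed, where 0.0152% of all genes were, 0.00506% higher and 0.0101% lower. The counts in pye-1, PPL and PEP45 are near the share over all genes and are no result about the set. The median log2 difference of the 9 genes was -0.4 in wild type, -0.19 in pye-1, -0.05 in PPL, -0.14 in SHR23, -0.16 in PEP45, -0.14 in WER13 and -0.08 in WER65, beside -0.01 to 0 over all genes. Of 11 core clock genes, 3 rose and 3 fell in each of SHR23, WER13 and WER65, where FC1 rose and CRD1 and PORB fell. FC1 was 1.51-fold higher in WER65, and it was also 1.49-fold higher in PEP45 and 1.38-fold higher in pye-1, both unlisted. The clock gene LHY was at 1.85, 2.65 and 2.17 RPKM in SHR23, WER13 and WER65. LHY was at 1.45 RPKM in wild type with iron, 0.336 in wild type without iron, 0.488 in pye-1, 0.192 in PPL and 0.346 in PEP45. The clock gene PRR7 was at 4.25, 5.91 and 6.33 RPKM in SHR23, WER13 and WER65. PRR7 was at 45 RPKM in wild type with iron, 21.5 in wild type without iron, 17.6 in pye-1, 21.5 in PPL and 14.1 in PEP45. The part of the clock in these results was not tested.

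**Figure D5:**
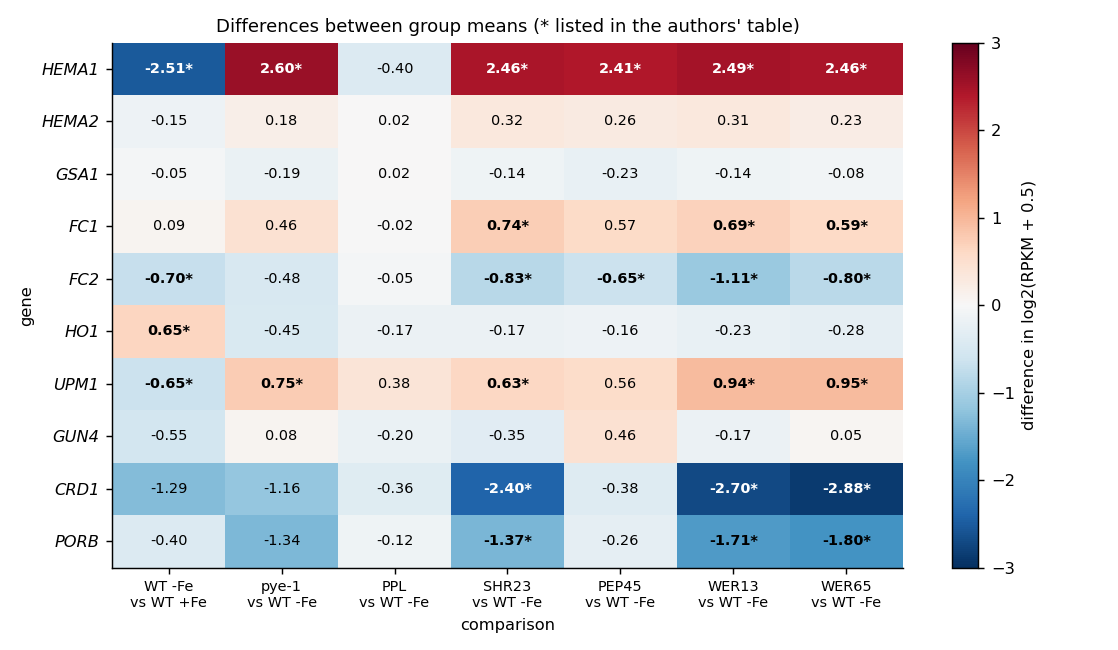
Difference in log2(RPKM + 0.5) between group means for the 10 genes (rows) in the 7 comparisons that have an authors' table (columns), printed in each cell and shaded from blue (lower) to red (higher). Bold values with an asterisk are listed in that table: HEMA1 is -2.51 in wild type and between 2.41 and 2.6 in 5 of the other 6 comparisons.

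The lines were also set against pye-1 and against each other, by fold alone, since no authors' table gives those comparisons and no test can be made from means. Against pye-1, 2 of the 9 genes differed at least 2-fold in PPL on the log2(RPKM + 0.5) scale, HEMA1 8.86-fold lower and PORB 3.7-fold higher, where 6.65% of all genes differed that far. PORB was 3.28-fold higher in PEP45, the only one of the 9 past 2-fold there, where 1.3% of all genes were. CRD1 was 3.29-fold lower in SHR23, 4.8-fold lower in WER13 and 6.31-fold lower in WER65, in each case the only one of the 9, where 4%, 2.73% and 2.2% of all genes passed. WER13 and WER65 differed from each other 2-fold in none of the 9 genes, with 1.19% of all genes past that fold. Between SHR23 and PEP45, CRD1 and PORB were 6.17- and 3.39-fold lower in SHR23, where 2.79% of all genes passed. HEMA1, HEMA2, GSA1, FC1, HO1 and UPM1 lay within 1.22-fold of pye-1 in SHR23, PEP45, WER13 and WER65.

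The genes whose log2 levels followed HEMA1 most closely over the 8 group means, among 18357 genes that reached 2 RPKM, were ABCI8 (r = 0.998), AT5G59400 (r = 0.996) and FSD1 (r = 0.995). ABCI8, also known as SUFB, is a scaffold protein of iron-sulfur cluster assembly in plastids, and FSD1 is an iron superoxide dismutase. ABCI8 was at 42.8 RPKM in wild type with iron, 5.07 in wild type without iron, 40.1 in pye-1, 3.73 in PPL, 35.7 in SHR23, 36.8 in PEP45, 44.6 in WER13 and 41.2 in WER65. FSD1 was at 113, 23.6, 135, 17.3, 126, 142, 125 and 129 RPKM in the same order of groups. Both were low in iron-deficient wild type and PPL alone, as HEMA1 was, which follows from their choice by r. Nearest to CRD1 were LSMT-L (r = 0.995), TROL (r = 0.993) and AT5G53490 (r = 0.992). TROL, a thylakoid protein that tethers ferredoxin reductase, ran from 9.84 RPKM in wild type with iron and 5.03 without to 1.21 in WER13 and 1.29 in WER65. Nearest to PORB were PIT1 and AT4G32340 (r = 0.989 for both) and RLP57 (r = 0.987). The r does not measure the size of a change. PORB ran from 0.224 to 2.82 RPKM and AT4G32340 from 0.273 to 5.27, but PIT1 only from 17 to 29.9 and RLP57 from 6.9 to 11.3. Nearest to GUN4, with few reads, were AT4G27620 (r = 0.961), AT1G65032 (r = 0.957) and MEF8S (r = 0.955).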

How the data were processed

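RNA was taken from razor-separated roots, poly(A)-selected and made into directional libraries, per the labels' protocols. The submitters' processing notes name the TAIR10 build, FastQC, TopHat2 and edgeR, without versions or roles. How reads were counted, on which strand, and with what gene lengths is not given in the sources used here. The authors deposited RPKM values for 33602 genes as 1 mean per group, and 7 tables of genes with a q-value each, whose test is not stated. A table headed PYE was assigned to PPL by the direction of its 3 genes in the group means, since another is headed pye-1. With no value per library, no standard deviation, interval or test was computed, and the planned fits over libraries could not be made.

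Of 33602 identifiers, 32835 were found in RefSeq's TAIR10.1 annotation, which gave names and positions, among them 10 of 10 genes described and 81 of 81 genes of the lists. Genes were kept at 1 RPKM or more in at least 1 group. A log2 difference is of log2(RPKM + 0.5), and a fold is a plain ratio of RPKM values. Counts of 2-fold differences used the log2(RPKM + 0.5) scale, which understates the change of low genes. Approximate reads were taken from RPKM, TAIR10.1 exon length and the single-read steps of low values. Named genes were the 10 genes, every pathway list gene listed in any comparison, and the 3 genes of highest Pearson r for the 4 genes of widest range. Pathway genes named as unlisted fall outside that rule. The genes described and the lists were chosen with earlier results of these data known. The core clock list (11 genes) had 6 genes lower in wild type under iron deficiency, 3 higher and 3 lower in each of SHR23, WER13 and WER65, 1 higher and 1 lower in PEP45, and none in pye-1 or PPL, in the authors' deposited tables. Over all genes 11.7% fell in wild type, 19.1% were listed in pye-1 and 0.0152% in PPL. In SHR23, PEP45, WER13 and WER65, 7.56% to 8.99% of all genes rose and 9.64% to 14.1% fell. Python 3.11.15, pandas 2.3.3, numpy 2.4.6 and matplotlib 3.10.9 were used. The 2-fold call and the search for genes of similar profile were tested on simulated data, and the other steps were not.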

Additional observations from a re-analysis of the deposited data

How the results depend on the processing

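With 1 mean per group, the limit of these results is the missing spread between libraries, and for GUN4, CRD1 and PORB also few reads. Of 70 counts of the 10 genes recomputed under other settings, 57 stayed within 1.5 times. When listed genes had also to differ 2-fold on the log2(RPKM + 0.5) scale, the count was 1 in wild type, 1 in pye-1, 3 in SHR23, 1 in PEP45 and 3 in WER65. At a q-value under 0.01 in the authors' deposited table, PEP45 kept 1. For the 2-fold counts without a test, a pseudocount of 1 gave 1 for PPL against pye-1, 0 for SHR23 against pye-1, 0 for PEP45 against pye-1 and 1 for SHR23 against PEP45. A filter of 5 RPKM gave 1, 0 and 1 for PPL against pye-1, PEP45 against pye-1 and SHR23 against PEP45, by leaving out PORB. Of 560 recomputed log2 differences of single genes, 554 moved by under 1.5-fold and none of the listed ones changed sign. The other 6, with a pseudocount of 0.1, were larger for CRD1, PORB and GUN4. No paired analysis was possible because the files used hold 1 mean per group, and leaving out each library could not be run for the same reason.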
